A study of Homo sapiens with 4 samples.

Results

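Of the 42682 accessible regions called in sgSNHG1 cells, 831 lay at the promoter of a protein-coding gene and overlapped no region called in control cells. These 831 sgSNHG1-only promoter peaks are described here with the 905 genes whose start they flank. They were chosen by 2 properties: no overlap of even 1 bp with a control peak, and a position that reached within 3 kb upstream or downstream of a protein-coding transcription start site (TSS). Chromosomes 4, 9 and X were left out, where another 72 peaks met both conditions. The members made up 7.70% of the 10798 sgSNHG1 promoter peaks on the chromosomes kept. They made up 9.64% of the 8616 sgSNHG1 peaks without a control counterpart there, and 831 of the 90292 peaks of both lists combined.

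The data are ATAC-seq of SK-N-BE(2)C, an established neuroblastoma cell line with amplified MYCN. Control cells received a non-targeting guide RNA and are labelled wildtype, whereas sgSNHG1 cells received guide RNA against SNHG1 and are labelled SNHG1 knockout. Both groups were co-transfected with Cas9, dual guide RNAs and surrogate reporters, selected with puromycin and expanded from single sorted cells, so that a group can carry the features of its clone as well as those of its guide. The study describes the loss of SNHG1, a long non-coding RNA that hosts small nucleolar RNAs, as incomplete, and which clones entered ATAC-seq is not given in the sources used here. The 2 replicates of a group were combined by the authors ahead of peak calling. Every value below therefore comes from 1 list per group, with no spread between replicates and no test between the conditions, and all intervals cover counting error only. The control list held 47610 peaks.

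ATAC-seq reads out where the Tn5 transposase can reach DNA, and the start sites of active genes are the most regular of such places, since the transcription machinery keeps a stretch free of nucleosomes there. Promoters of widely used genes tend to be rich in CpG and to carry binding sites of SP, ETS, NRF1 and CCAAT-binding factors. Sites used in a particular cell state more often carry motifs of factors such as AP-1 (the FOS and JUN proteins), GATA or basic helix-loop-helix factors, and often lie some distance from the start. As a check of the label, 8 of 9 genes that mark sympathetic neuroblastoma, MYCN, GATA3 and CHGA among them, had a promoter peak in both lists, and TH had one in neither. Of the 4 blood and 2 muscle markers none had a promoter peak in either list, whereas EPCAM, APOA1 and CDH5, markers of epithelium, liver and endothelium, had one in both.

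Sequences of 2 kinds of member are shown, since the results below turn on them: start sites that had a peak only in sgSNHG1, and members with an AP-1 word near the summit. Both sets were taken from GRCh38, among the most significant members whose window holds no annotated exon, and the first shows 5 of the 6 highest such starts. It gives the 100 bases just before the annotated start, read 5′ to 3′ along the gene. Capitals mark the promoter words GGGCGG (SP), CCGGAA (ETS) and CCAAT on either strand.
SPEF1, chr20:3781449-3781548, minus strand: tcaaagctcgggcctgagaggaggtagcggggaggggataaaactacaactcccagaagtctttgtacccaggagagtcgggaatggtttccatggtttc
RBMS2, chr12:56521720-56521819, plus strand: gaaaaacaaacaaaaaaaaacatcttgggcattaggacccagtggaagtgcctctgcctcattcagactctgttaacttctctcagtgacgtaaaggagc
BCL11B, chr14:99272198-99272297, minus strand: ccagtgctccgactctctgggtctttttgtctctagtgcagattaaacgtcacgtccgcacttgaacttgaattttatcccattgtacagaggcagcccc
FAM43B, chr1:20552473-20552572, plus strand: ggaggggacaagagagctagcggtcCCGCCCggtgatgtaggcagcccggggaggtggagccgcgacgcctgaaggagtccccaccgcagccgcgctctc
ZNF728, chr19:23003177-23003276, minus strand: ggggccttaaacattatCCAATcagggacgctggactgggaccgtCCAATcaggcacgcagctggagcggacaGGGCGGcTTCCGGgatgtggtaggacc

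Of the 5 starts shown, FAM43B held an SP word and ZNF728 held all 3 kinds, while the other 3 held none of them in these 100 bases. The second set is 61 bases centred on an AP-1 word, read along the strand of the nearest gene, with TGAGTCA in capitals.
SLC6A17, chr1:110150426-110150486, plus strand: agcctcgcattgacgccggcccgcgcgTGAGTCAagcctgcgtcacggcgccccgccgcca
EPB41, chr1:28885088-28885148, plus strand: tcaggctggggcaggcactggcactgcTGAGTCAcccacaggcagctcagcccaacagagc
WFIKKN1, chr16:626948-627008, plus strand: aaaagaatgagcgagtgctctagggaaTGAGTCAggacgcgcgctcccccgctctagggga
DEDD2, chr19:42217916-42217976, minus strand: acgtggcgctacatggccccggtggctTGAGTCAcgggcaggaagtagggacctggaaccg
PCNX2, chr1:233295035-233295095, minus strand: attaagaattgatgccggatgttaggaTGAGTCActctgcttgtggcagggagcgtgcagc
ACVRL1, chr12:51906148-51906208, plus strand: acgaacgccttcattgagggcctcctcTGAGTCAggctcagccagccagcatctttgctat

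The members were small peaks, as a choice by absence from another list tends to give. Their fold enrichment, the deposited ratio of fragments at the summit to the local background, had a median of 4.10 with quartiles of 3.64 and 4.77. The summits rested on a median of 16 fragments (quartiles 13 and 19), and the peaks were 139 bp wide in the median. Shared promoter peaks, those that overlap a control peak, had a median fold enrichment of 6.63 and a width of 411 bp in the same sgSNHG1 list. Control-only promoter peaks, the mirror image of the members, had a median fold enrichment of 4.01 and a width of 228 bp. Of the members, 340 (40.9%) reached a −log10 q of 5 and 52 (6.26%) reached 10, against 88.9% and 64.0% of the shared promoter peaks. These values chose the members or follow from the choice, and they are given as a description.

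The other direction was more frequent. Of 11038 control promoter peaks, 17.1% (1885) had no sgSNHG1 counterpart, against 7.70% in the opposite direction. At the level of genes, 1930 of 17577 protein-coding genes (11.0%) had a control-only promoter peak and 905 (5.15%) had a member. The control list also had more and wider peaks in all, and the effect of that on these shares was not tested.

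**Figure D1:**
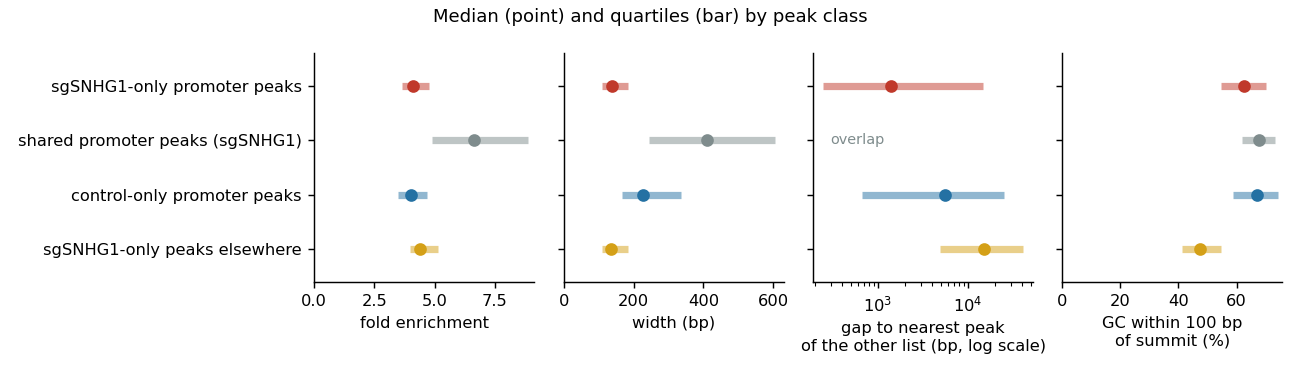
Median (point) and quartiles (bar) of fold enrichment, peak width, distance to the nearest peak of the other list (log scale) and GC content within 100 bp of the summit, for 4 classes of peaks. The sgSNHG1-only promoter peaks had a median fold enrichment of 4.10, near that of control-only promoter peaks (4.01) and below that of shared promoter peaks (6.63), and lay closer to a peak of the other list than the sgSNHG1-only peaks elsewhere.

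A missing control peak does not mean that the control had no fragments there. At the genome-wide background the lowest control pileup that was called held 10 fragments. When the control background at a member was taken to scale with that of sgSNHG1, up to 12 fragments in the median could have gone uncalled in control. Under that assumption the smallest sgSNHG1 to control ratio of scaled pileup that the absence of a peak allows had a median of 0.66 on the log2 scale (quartiles 0.51 and 0.89). The counting error of that ratio was 0.55 in the median. Only 123 of 831 members had a smallest ratio of 1 or more on the log2 scale, and 115 exceeded 2 counting errors. For the other members, absence from the control list alone does not set the sgSNHG1 value beyond 2 counting errors of the highest uncalled control level.

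Members were set off from the start site. The summit lay a median of 646 bp (95% interval 565 to 716) from the nearest protein-coding TSS, against 131 bp for shared and 511 bp for control-only promoter peaks. Within 500 bp of a TSS lay 41.3% of members, 76.3% of shared and 49.7% of control-only promoter peaks. The difference from shared peaks was -35.0 percentage points (95% Newcombe interval -38.4 to -31.5), and that from control-only peaks was -8.43 (interval -12.4 to -4.37). More than 1000 bp from every TSS lay 34.3% of members, 11.9% of shared and 29.7% of control-only promoter peaks. Members thus lay further out than either class, and the step to the control-only class was the smaller one. The rule itself pushes members outward, since a member cannot overlap a control peak. Shared promoter peaks of the control list were 622 bp wide in the median, with a median distance of 122 bp to the TSS. The distances are therefore a description, and how much of the offset the rule alone gives was not tested.

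Most members lay inside the gene. The summit was upstream of the nearest TSS in 39.5% of members, 50.2% of shared and 38.4% of control-only promoter peaks. Among summits over 500 bp away the order against shared peaks turned, at 33.4% of members, 26.6% of shared and 30.5% of control-only peaks. By annotation, 36.3% of member summits were in an intron, 19.3% in a UTR, 11.8% in a coding exon, 7.94% in another exon and 24.7% between genes. Shared promoter peaks had 22.6% in introns and 29.5% in UTRs. The intron share of members was close to the 35% of control-only promoter peaks.

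**Figure D2:**
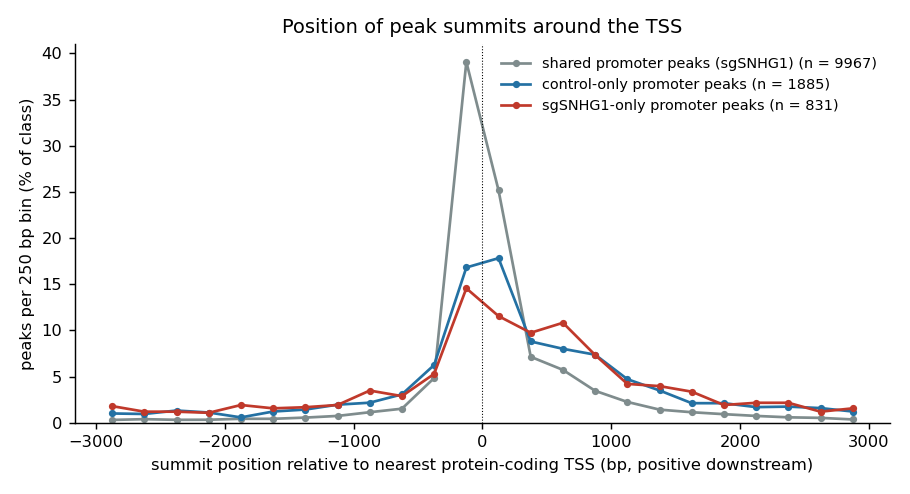
Share of each class of promoter peak per 250 bp bin of summit position relative to the nearest protein-coding TSS, with positive distances inside the gene. Shared peaks crowd within 250 bp of the start, whereas the sgSNHG1-only peaks (n = 831) and the control-only peaks (n = 1885) spread into the first 1000 bp downstream.

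The rule had 2 limits, and the members just inside them show what it separates. SEMA6D and GPSM3 had members that abutted a control peak with a gap of 0 bp, whereas a peak at FMNL1 was left out for an overlap of 1 bp and a peak at CELF3 for 3 bp. At the other limit, the near edges of the members at ABHD16B and KCNE4 lay 2998 bp from the TSS, and peaks at C1orf35 and PALS2 at 3002 and 3040 bp were left out. In all, 304 members (36.6%, interval 33.4 to 39.9) had a control peak within 500 bp and 148 within 150 bp. At the other end, 240 had no control peak within 10 kb.

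The 905 genes fell into 2 groups. For 568 of them (62.8%, interval 59.6 to 65.9) the same promoter window also held a control peak, so that the member was a further site at a promoter that was open in both. For 337 genes, 1.92% of all protein-coding genes tested, the control list had no peak within 3 kb of the start. Of the 568 genes, 444 had a peak shared between the lists. In 122 genes the window held control-only peaks but no shared one, so that the lists placed their peaks at different positions of the same promoter. A member and a control-only peak stood together in the window of 182 genes (20.1%).

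Most genes had 1 member (866 genes), 38 had 2, and GRK3 alone had 3. GRK3, a kinase that desensitises G protein-coupled receptors, had no control peak in its window. Its members on chromosome 22 lay at 25564330 to 25564436, 25564617 to 25564733 and 25565047 to 25565151, with fold enrichments of 3.82, 4.10 and 5.10. The nearest control peak was far from each, at gaps of 70410, 70697 and 71127 bp. Because neighbouring genes can share a promoter region, 92 members counted for 2 genes and 10 for 3 or more.

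At the genes with a member, the peaks that both lists shared had nearly the same fold ratio as elsewhere but were lower and narrower. Over 423 such pairs in these windows the fold enrichment in sgSNHG1 relative to control had a median log2 ratio of -0.06 (95% interval -0.09 to -0.03), and over 8689 pairs at other promoters the ratio was -0.07 (interval -0.08 to -0.06). The intervals of the ratio overlap. For scaled pileup the median log2 ratio was 0.0002 (interval -0.05 to 0.04) at genes with a member. At other promoters it was -0.04 (interval -0.05 to -0.03), and these intervals overlap as well. The control fold enrichment of the pairs was 6.24 in the median (interval 5.93 to 6.57) at genes with a member and 7.5 (interval 7.44 to 7.57) at other promoters. The sgSNHG1 peak of a pair was narrower by a median of -0.49 on the log2 scale (interval -0.58 to -0.41) at genes with a member and by -0.38 (interval -0.40 to -0.37) at other promoters.

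The members with the highest significance were a mixed group. The highest of all was an intergenic peak 2390 bp upstream of OR5AR1, an olfactory receptor gene (ENSG00000172459.5), on chromosome 11 at 56661089 to 56661457. It had a fold enrichment of 11.4 from 31 fragments, and the nearest control peak was 166040 bp away. At STUM (chromosome 1, 226547840 to 226547981) a member 854 bp upstream of the start had a fold enrichment of 7.41 from 42 fragments, while the only control peak of that window, at a fold enrichment of 3.50, was itself control-only. At AGPAT1, an acyltransferase of phospholipid synthesis, an intronic member (chromosome 6, 32176106 to 32176251) had a fold enrichment of 5.83 from 47 fragments. It also lay in the window of RNF5, a ubiquitin ligase of the endoplasmic reticulum, and a control peak of 6.76 stood 1182 bp away.

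At SRRM4, a splicing regulator of neuronal microexons, the member lay in an intron 3200 bp into the gene (chromosome 12, 118984482 to 118984835) with a fold enrichment of 6.72 from 40 fragments. The window of SRRM4 held 2 control peaks, the higher at 5.44. At POLR2J, a subunit of RNA polymerase II, the member (chromosome 7, 102480006 to 102480204) had a fold enrichment of 9.19 from 24 fragments and lay 618 bp from a control peak, and 36.8% of the 50-base words around its summit occur elsewhere in the genome. The member shared by TAF11L5 and TAF11L6 had the same fold enrichment and fragment count, and 57.9% of its words occur elsewhere. Multiply mapped reads were removed, so the values of such members rest only on the reads that could be placed. A control peak of 15.6 stood 110 bp from the member at TAF11L6. In all, 7 members had at least 50% of their words elsewhere, 3 of them at TAF11L4 and TAF11L6 and the others at FAM86B2, DPP6, SYT15B and NCF1.

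Of the remaining members among the 12 most significant, 6 had no control peak in the window. An intronic member of APOH, the gene of a plasma glycoprotein made in liver, had a fold enrichment of 8.56 from 25 fragments (chromosome 17, 66255172 to 66255268). A member 2267 bp upstream of C17orf78 reached 7.80 from 27 fragments. The member 2815 bp upstream of ADAMTS8, a secreted metalloprotease, reached 5.54 from 35 fragments. A member in an intron of the HOXB cluster (chromosome 17, 48602699 to 48602800) reached 6.66 from 28 fragments, with the nearest control peak 15877 bp away, and it counted for both HOXB3 and HOXB6. At CPED1 a member 907 bp upstream reached 7.66 from 22 fragments. The last, SPEF1, lay at the start itself and is described next.

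Members that sat on a start site with no control peak in the window numbered 181, counted within 500 bp of the TSS. The most significant was SPEF1, a microtubule-binding protein of cilia and flagella (ENSG00000101222.12), with a summit 35 bp upstream on chromosome 20 at 3781408 to 3781607 and a fold enrichment of 6.20 from 32 fragments. SLC6A17, a neuronal vesicular transporter of neutral amino acids (ENSG00000197106.7), had its summit 35 bp downstream in the UTR, at 110150459 to 110150710 on chromosome 1, with 6.15 from 27 fragments. RBMS2, an RNA-binding protein, had its summit 13 bp upstream and reached 7.57 from 20 fragments. CALB2, which encodes the calcium-binding protein calretinin, had its summit 18 bp upstream and reached 6.49 from 24 fragments. BCL11B, a zinc finger repressor of T cell and neuronal differentiation (ENSG00000127152.18), had a member 103 bp upstream at 5.80 from 25 fragments and another 2677 bp upstream at 4.44 from 19 fragments.

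The choice of these starts left no control peak within 3 kb of them. The gap to the nearest one was 3206 bp at SPEF1, 14162 bp at SLC6A17, 33198 bp at RBMS2, 8790 bp at CALB2 and 47856 bp at BCL11B. FAM43B reached 5.82 from 24 fragments. At ZNF728, ZNF17, RAD54L2 and the start shared by STIMATE and STIMATE-MUSTN1 the value was the same, 6.99 from 18 fragments. Such ties arise where the local background equals the genome-wide one, so that the fold enrichment depends on the fragment count alone.

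The genes without a control peak were not spread evenly over the chromosomes. On chromosome 19, 60 of 1476 genes (4.07%, interval 3.17 to 5.20) had a member and no control peak in the window, and on chromosome 17, 44 of 1186 did (3.71%, interval 2.78 to 4.94). Counted as 1 group, these chromosomes had 3.91% (interval 3.23 to 4.71), against 1.56% (interval 1.38 to 1.77) of 14915 genes on the others. These chromosomes were singled out after their values were seen. For genes with any member the same contrast was 6.42% against 4.92%, and chromosome 13, counted among the others, had the highest share of any chromosome at 7.43% (interval 5.04 to 10.8). Chromosome 19 also had the highest median ratio of scaled pileup between the lists over its 504 shared promoter pairs, 0.15 on the log2 scale (interval 0.10 to 0.18), where the other chromosomes ran from -0.14 to 0.08. Its control-only share of promoter peaks, 24.5%, was high as well. On chromosome 17 the ratio was 0.01 (interval -0.03 to 0.04). The part of copy number or of a clone in these counts was not tested.

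**Figure D3:**
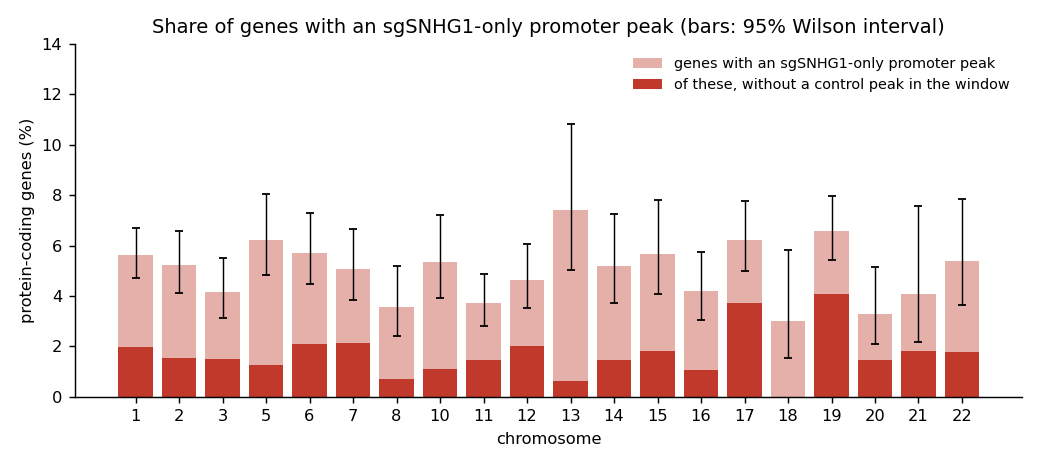
Share of protein-coding genes with an sgSNHG1-only promoter peak on each chromosome analysed (pale bars, with 95% Wilson intervals), and the share that had no control peak in the window (dark). Chromosomes 17 and 19 stand out in the dark bars, at 3.71% and 4.07%, and chromosome 18 has none.

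Zinc finger genes are a large group on chromosome 19. They encode DNA-binding proteins, many of them KRAB repressors that sit in clusters on that chromosome. Of 484 ZNF genes, 37 had a member (7.64%, interval 5.60 to 10.4, against 5.15% of all genes), and 20 of the 37 had no control peak. Of these 20, 18 lay on chromosome 19, 18 had the summit within 500 bp of the TSS, and 15 had it within 100 bp. A member without a control peak stood at 1.92% of all genes and at 4.07% of all genes on chromosome 19. How many of the 484 lie on chromosome 19 was not counted, so the gene family and the chromosome were not separated here. ZNF17 (summit 45 bp upstream), ZNF223 (570 bp downstream) and ZNF728 (90 bp upstream) each had a fold enrichment of 6.99 from 18 fragments, and ZNF729 (173 bp upstream) had 6.62 from 17 fragments. Control-only peaks stood at 56 ZNF genes (11.6%), near the 11.0% of all genes.

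Other gene lists are given by their counts beside the same background of 5.15%. The share of all genes with a control-only peak was 11.0%, and 37.2% of the 905 genes with a member had no control peak. Histone genes had 13 of 74 (17.6%, interval 10.6 to 27.8), and a control-only peak stood at 14 of the 74. Removal of multiply mapped reads lowers the signal of near-identical copies, and at H4C11 44.1% of the 50-base words around the summit occur elsewhere. The histone loci are dense clusters, so that a member can count for several genes. Most of the 13 genes shared their member with another of them. The interval counts each gene as separate and is too narrow for such genes. A peak of 5.70 from 26 fragments served H1-1, H3C1 and H4C1, with its summit 26 bp before the start of H3C1. At H1-2, a linker histone gene, the member stood 1066 bp downstream of the start with 6.64 from 25 fragments. Of these 13 genes 12 had a control peak, and H1-1 had none.

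Homeobox genes, regulators of body and neural patterning, had 14 of 117 (12%, interval 7.26 to 19.1). Of these 14, 8 had no control peak, against 37.2% of all 905 genes with a member. Beside HOXB3 and HOXB6, the most significant were NKX2-4 (6.62 from 17 fragments, with a control peak of 3.74 in the window) and HOXC8 (4.99 from 23 fragments, without one). Control-only peaks stood at 20 homeobox genes (17.1%, against 11.0% of all genes), so that this list was high in both directions. Axon guidance genes had 8 of 71 (11.3%, interval 5.82 to 20.7) and 20 with a control-only peak (28.2%). EFNB2, an ephrin ligand, had a member of 4.37, NTN4, a netrin, one of 5.20, and the Eph receptors EPHB6 and EPHB4 had members of 4.10 and 4.03. Only EPHB4 of these 4 had no control peak in its window, as had SEMA3F of the others.

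Ion channel and neurotransmitter receptor genes had 15 of 220 (6.82%, interval 4.18 to 10.9), 8 without a control peak. CACNB1, a calcium channel subunit, had a member 50 bp inside the gene at 4.68 from 35 fragments and a control peak of 4.76. CACNG3, HTR2B and KCNJ18 followed with 6.13, 5.10 and 5.07, and KCNJ18 has close copies in the genome. Solute carriers had 17 of 330 (5.15%), equal to the background, led by SLC6A17, SLC16A14 (5.71), SLC39A13 (4.48) and SLC29A4 (4.70). Of these only SLC6A17 lacked a control peak.

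Among lists of genes mostly foreign to neural cells, olfactory and taste receptors had 13 of 419 (3.10%, interval 1.82 to 5.24) and keratins and epidermal genes 6 of 217 (2.76%, interval 1.27 to 5.90), both with intervals that include the 5.15% of all genes. The interval of the next list did not include it, with cytokine, chemokine and interferon genes at 3 of 187 (1.60%, interval 0.547 to 4.61). Of the genes with a member, 10 of 13, 6 of 6 and 3 of 3 had no control peak in the window, against 37.2% of all 905. These lists have few control promoter peaks at all, at 23 of 419, 18 of 217 and 58 of 187 genes. After OR5AR1, the most significant receptors were OR2F2 (5.15 from 18 fragments), OR6S1 (5.52 from 14) and OR4S1 (5.15 from 13). The epidermal genes were KRT32 (5.69), S100A7A (4.94), KRTAP19-1 (4.78), LCE3E (3.98), KRTAP12-1 (4.05) and KRTAP1-1 (4.02). The cytokine group was CCL2 and CCL1, chemokines of chromosome 17 at 5.80 and 5.61, and IFITM1, an interferon-induced membrane protein, at 3.38.

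Extracellular matrix genes had a control-only peak at 26 of 129 (20.2%), against 11.0% of all genes. A member stood at 4 of the 129 (3.10%, interval 1.21 to 7.70). All 4 had no control peak, against 37.2% of the 905 genes with a member. The 4 were ADAMTS8, COL6A2 with its summit 4 bp before the start (4.32), its neighbour COL6A1 (3.03), and MMP14, which had a member 56 bp before the start (4.10) and another inside the gene. Cadherins and protocadherins had 3 of 88 (3.41%): PCDHA8 at 4.41, PCDH8 at 3.87 and PCDH17 at 3.26, each beside a control peak. The TGF-beta, BMP and Wnt list had 5 of 85 (5.88%), against 20 (23.5%) with a control-only peak. WNT2 (5.33) and GDF1 (4.67) had no control peak, whereas INHBB (3.56), SFRP1 (3.15) and FZD7 (3.33) had one.

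**Figure D4:**
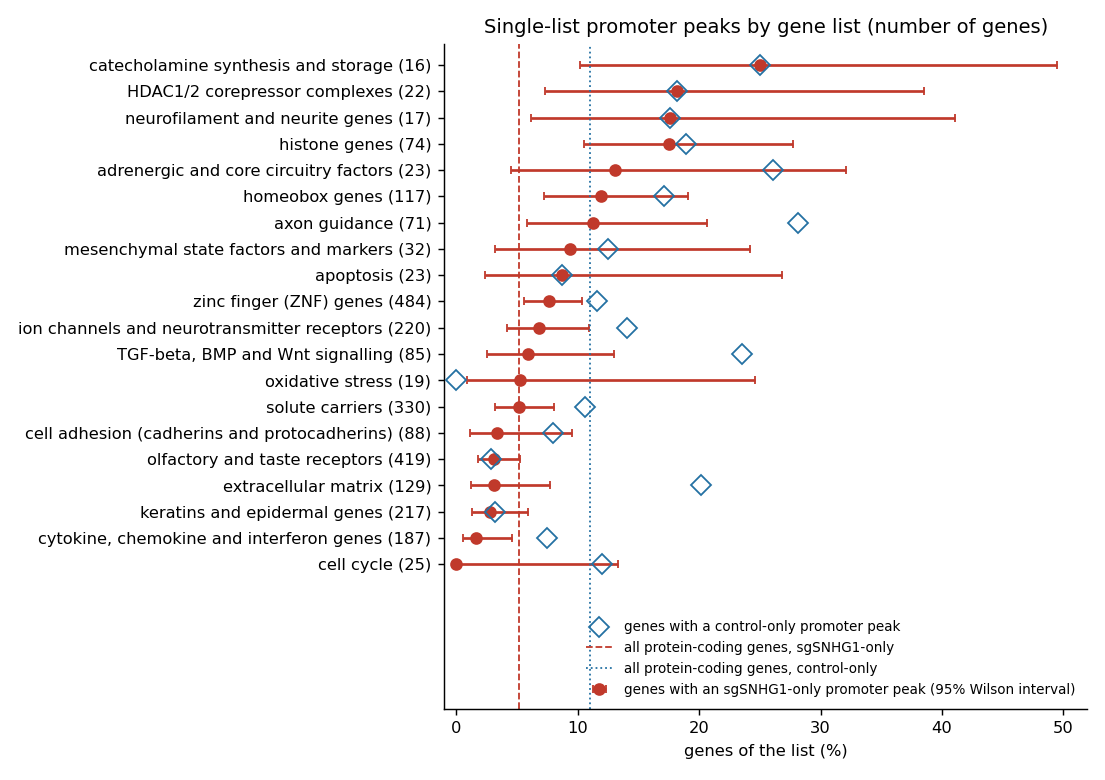
Share of the genes of each list with an sgSNHG1-only promoter peak (points, 95% Wilson interval) and with a control-only promoter peak (open diamonds), with the number of genes in parentheses. Dashed and dotted lines give all protein-coding genes (5.15% and 11.0%), and the intervals of most lists include the dashed line.

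In the adrenergic and mesenchymal lists of neuroblastoma cell state, each gene with a member also had a control peak in its window. Of 23 adrenergic and core circuitry factors 3 had a member (13.0%, interval 4.54 to 32.1), and all 3 had a control peak in the window. Most of the list had one with or without a member, at 19 of the 23. A control-only peak stood at 6 of the 23 (26.1%), against 11.0% of all genes. At GATA3 the member lay 109 bp upstream of the start (chromosome 10, 8045192 to 8045296) with a fold enrichment of 4.01 from 19 fragments, and the control peak, at 3.90, stood 2368 bp away. At PHOX2A, a sympathetic homeodomain factor, the member was intronic at 2.89 from 21 fragments, beside a control peak of 5.64. ZNF536, a zinc finger factor, had an intronic member of 3.52 from 15 fragments and a control peak of 4.00.

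Of 32 mesenchymal factors and markers 3 had a member (9.38%, interval 3.24 to 24.2), again all with a control peak, and 4 (12.5%) had a control-only peak. A control peak of either kind stood at 25 of the 32. ZEB2, a repressor of epithelial genes, had a member 181 bp upstream at 4.20 from 23 fragments, and 3 control peaks of up to 5.05. VIM, the intermediate filament vimentin, had a member 268 bp into its UTR at 4.42 from 20 fragments and a control peak of 4.86. FOSL2, an AP-1 subunit, had 2 members, the stronger 2109 bp upstream at 3.06 from 26 fragments, and a control peak of 7.07. In both lists of state genes the intervals included the 5.15% of all genes.

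Genes of catecholamine synthesis and storage had 4 of 16 (25%, interval 10.2 to 49.5), and 4 with a control-only peak. PNMT, which turns noradrenaline into adrenaline, had no control peak in its window and a member in a coding exon 576 bp from the start, at 4.33 from 28 fragments, with the nearest control peak 19217 bp away. CYB561, a cytochrome of secretory vesicles, had a member of 2.80 and no control peak in its window. SYT1, the calcium sensor of vesicle release, and SLC18A2, the vesicular monoamine transporter, had members of 3.86 and 3.75 beside control peaks of 14.2 and 5.56. Neurite genes had 3 of 17 (17.6%, interval 6.19 to 41.0): TUBB3 (3.42 from 33 fragments), DPYSL3 (3.89 from 16) and NCAM1 (3.43 from 16), each with a control peak. All 17 genes of that list had a control peak.

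The remaining lists were short. Of 22 genes of HDAC1/2 corepressor complexes 4 had a member (18.2%, interval 7.31 to 38.5). NCOR1 had an intronic member of 6.62, which lay only 35 bp from the start of the neighbouring gene PIGL. KDM1A, a histone demethylase, had one of 3.66 that stood 26 bp from a control peak of 9.57, and SIN3B, a scaffold of the complex, had one at its start of 4.63 from 14 fragments with no control peak in the window. Of 23 apoptosis genes 2 had a member (8.70%), among them BBC3 at 4.12 from 11 fragments, with no control peak in the window. GCLM, a subunit of the enzyme that limits glutathione synthesis, was the only 1 of 19 oxidative stress genes, at 5.74 beside a control peak of 11.6. None of 25 cell cycle genes had a member (interval 0 to 13.3), and 3 of them had a control-only peak.

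The DNA around the summits of the members differed from that around the summits of other promoter peaks. The median GC content within 100 bp of the summit was 62.7% (interval 61.7 to 63.7), against 67.7% at shared and 67.2% at control-only promoter peaks. The ratio of observed to expected CpG was 0.68 in the median, against 0.86 at shared and 0.73 at control-only peaks. Members on the start were closer to the usual promoter: within 500 bp of a TSS their median GC was 66.7% and their CpG ratio 0.79, and further away 60.4% and 0.57.

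Words of general promoter factors were less frequent at the members than at shared promoter peaks. The SP word GGGCGG was found within 100 bp of 39.2% of member summits (interval 36.0 to 42.6) and of 62.4% of shared summits. The ETS word CCGGAA stood at 10.5% and 22.0%, and CCAAT at 17.4% and 30.2%. The cyclic AMP response element TGACGTCA stood at 0.722% and 2.34%, and the NRF1 word GCATGCG at 1.44% and 4.52%. Control-only promoter peaks had 49.0% with the SP word, 9.18% with ETS and 14.7% with CCAAT, so that for all 3 words the members lay nearer to them than to shared peaks. Among summits with a GC content under 60% the SP word stood at 15.5% of members, 30.3% of shared and 12.9% of control-only peaks, and its difference from control-only peaks turned from -9.79 percentage points to 2.52 (interval -2.20 to 7.55). That of ETS turned from 1.29 to -1.28, with both intervals including 0. Windows centred on all 17577 protein-coding starts had 47.2%, 16.3% and 26.0%. Words were searched on both strands, and CCAAT and the other short words also turn up by base composition.

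The AP-1 words TGAGTCA and TGACTCA ran the other way. They stood within 100 bp of 40 member summits (4.81%, interval 3.55 to 6.49), against 1.90% of shared and 1.96% of control-only promoter peaks and 2.63% of all protein-coding start windows. The difference from shared peaks was 2.92 percentage points (Newcombe interval 1.63 to 4.61) and that from control-only peaks was 2.85 (interval 1.39 to 4.61). At positions 10 kb along the chromosome from the member summits the share was 3.13%. Among sgSNHG1-only peaks away from promoters it was 8.05%. The search window is wider than most members, which had a median width of 139 bp against 411 bp for shared peaks, so a word can lie outside the called peak. Within 50 bp of the summit the AP-1 words stood at 2.89% of members, 1.10% of shared and 1.11% of control-only peaks. The members shown above are examples. At ACVRL1 the word lay outside the called peak, and at SLC6A17 it lay at the edge. SLC6A17 carries the word just upstream of its start, and at EPB41, the gene of a membrane skeleton protein, and at PCNX2 the word lay close to the summit.

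The difference in AP-1 words was also seen among summits over 500 bp from a TSS, 5.94% of 488 members against 3.34% of shared (difference 2.61, interval 0.66 to 5.15) and 1.90% of control-only peaks (4.04, interval 1.97 to 6.60). Among peaks with a −log10 q under 5 it was 4.89% against 2.53% and 1.73%. Among summits with a GC content under 60%, however, the share was 5.76% of 330 members against 3.91% of shared and 4.05% of control-only peaks, and both intervals of the difference included 0 (-0.41 to 5.00 and -1.20 to 5.06). Of the 40 members with an AP-1 word, 15 had no control peak in a gene window.

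The E-box CATCTG, a word read by neural basic helix-loop-helix factors, was also more frequent at the members. It stood within 100 bp of 15.2% of member summits (interval 12.9 to 17.8), against 6.73% of shared and 10.3% of control-only promoter peaks and 7.91% of all start windows. Among summits over 500 bp from a TSS the shares were 19.3%, 11.8% and 13.4%, and among those with a GC content under 60% they were 25.5%, 13.7% and 16.2%. The differences from control-only peaks were 5.87 (interval 1.87 to 10.1) and 9.24 percentage points (interval 3.67 to 15). The share at positions 10 kb from the members, 14.6%, was close to that at their summits. The other E-box, CAGCTG, stood at 14.9% of members, 13.1% of shared and 14.9% of control-only peaks.

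The GATA words AGATAA and TGATAA stood at 8.54% of members, 3.74% of shared and 6.37% of control-only promoter peaks, and at 20.8% of positions 10 kb away. With a GC content under 60% the members had 17.9% and the control-only peaks 18.1% (difference -0.27, interval -5.44 to 5.18, turned from 2.18 over all GC contents), whereas shared peaks had 12% (difference 5.84, interval 1.79 to 10.5). TATAAA stood at 4.21%, 2.5% and 3.08%.

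**Figure D5:**
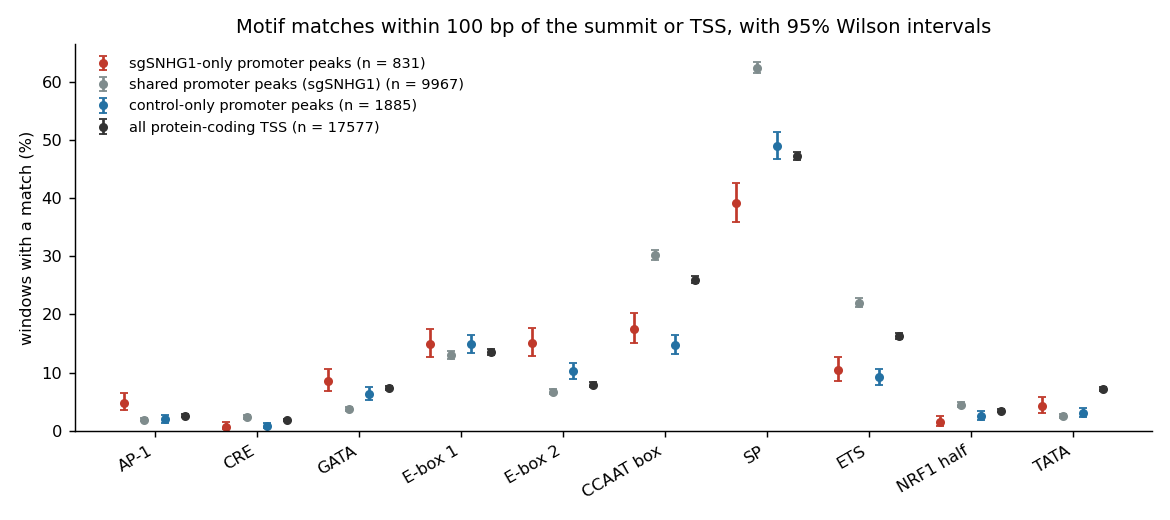
Share of windows of 100 bp on either side of the summit that hold each word, with 95% Wilson intervals, for sgSNHG1-only, shared and control-only promoter peaks and for all protein-coding TSS (E-box 1 is CAGCTG and E-box 2 is CATCTG). The sgSNHG1-only peaks are highest of the 4 for AP-1 (4.81%) and E-box 2 (15.2%) and lowest for SP (39.2%).

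The 321 members without a control peak in any window differed from the 510 with one. Their summits lay nearer to the TSS, with a median of 360 bp (interval 248 to 484) against 778 bp (interval 688 to 854), and 56.4% against 31.8% were within 500 bp. This contrast follows in part from the split, because a member cannot lie on a start that a control peak covers. Their fold enrichment was 4.41 against 3.90 in the median. The GC content was close, 63.7% against 62.4% with overlapping intervals, and so was the AP-1 share, 4.67% against 4.90%. The CAGCTG E-box stood at 18.4% against 12.7%, with intervals of 14.5 to 23 and 10.1 to 15.9.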

How the data were processed

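ATAC-seq was done on 2 replicates of each of 2 groups, 4 samples in all, and the authors combined the replicates of a group before peak calling, so that the deposited data are 1 peak list per group. The authors trimmed reads with cutadapt, aligned them to GRCh38 with BWA, marked duplicates with GATK and Picard, removed duplicate, multiply mapped, improperly paired, mitochondrial and blacklisted reads, shifted read ends with deepTools for the Tn5 offset and called peaks with MACS2 on paired fragments, keeping all remaining fragments. Tool versions and the peak threshold are not given in the sources used here. The −log10 q values started at 2.00 for control and 2.01 for sgSNHG1. Removal of multiply mapped reads lowers the signal of near-identical copies.

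The deposited columns are coordinates, a MACS2 score (not used further), the fold enrichment, which is a ratio of fragment pileup to local background with a pseudocount, and the −log10 p and −log10 q. Read totals are not analysed here. From the deposited fold and −log10 p the fragment pileup at each summit was solved, within a tolerance of 0.001 in −log10 p, for 47609 of 47610 control and all 42682 sgSNHG1 peaks. The genome-wide background was 2.20 fragments in control and 1.72 in sgSNHG1, the only measure of depth, and scaled pileup is the pileup divided by it.

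Genes and TSS were those of protein-coding gene records in GENCODE version 44, 17577 on the chromosomes kept. Peaks overlapped if they shared at least 1 bp. Shares carry 95% Wilson intervals, differences of shares Newcombe intervals, and medians order-statistic intervals. Words were searched on both strands within 100 bp of the summit. Copies were sought as 50-base words elsewhere in GRCh38. With 1 combined list per group, no test between groups was made. The peaks, gene lists and words were chosen with earlier results of these data known. Genes named are the 12 members of highest −log10 q, the 10 such among starts within 500 bp of a member and without a control peak in the window, the genes of a list (all if 6 or fewer, otherwise the 4 highest), genes with 3 or more members, and the peaks nearest each limit of the rule; the genes with copied sequence, the AP-1 examples and PIGL, H4C11 and SEMA3F were named outside it. A few items that this rule names are not reported here. Scripts used Python 3.11.15, numpy 2.4.6, pandas 2.3.3, scipy 1.17.1, pysam 0.24.0 and matplotlib 3.10.9, and were tested on simulated peak lists. Alternatives covered the overlap, the −log10 q, the TSS window and annotation, the chromosomes left out, the summit window and the copies.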

Additional observations from a re-analysis of the deposited data

How the results depend on the processing

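Of 59 alternative values, among 7 counts, shares and medians of the members, 33 were labelled the same as the reported value and 26 moved. Shares and medians labelled the same lay within the interval of the reported value. Counts had no interval, and those labelled the same still differed widely from the reported 831 peaks at 905 genes. They ran from 572 peaks at 605 genes with a TSS window of 1 kb to 1211 peaks at 1247 genes with the TSS of any protein-coding transcript. The number of members thus depends on the definition of the promoter. Word shares against control-only peaks, given above, were compared apart from the 59 values. For SP, ETS and GATA the difference turned among summits with a GC content under 60%. With an overlap of 50% of the sgSNHG1 peak needed to count as shared, 72.0% of genes with a member had a control peak. With any control peak within 500 bp counted as shared, there were 527 peaks at 573 genes, and only 41.5% of them had a control peak in place of 62.8%, and the medians were 782 bp to the TSS, a fold enrichment of 4.34 and 61.2% GC. At a −log10 q of at least 5 there were 340 peaks at 376 genes, 56.9% with a control peak, with a fold enrichment of 4.90 and 60.7% GC. At 10 there were 52 peaks at 61 genes, 54.1% with a control peak, at 1294.5 bp, 6.14 and 55.2% GC. A TSS window of 1 kb gave 54.4%, 383 bp and 64.7% GC, and the TSS of any protein-coding transcript gave 71.6%, 453 bp and 60.7% GC. The AP-1 share was 2.89% within 50 bp of the summit. Scaled pileup in place of fold enrichment had a median of 9.31. The shifts follow from which peaks each alternative keeps or how it measures them. Leaving out the 7 members with copied sequence, an alternative chosen after seeing the data, left 824 peaks at 897 genes.

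No paired analysis was possible because the replicates of each group had been combined into 1 list. Leaving out a replicate was not done for the same reason. Depth and peak width limit the absence of a control peak. The 115 of 831 members beyond 2 counting errors, given above, were counted without regard to width. A list called at another depth would hold other members.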
